A study of Mus musculus with 32 samples.

Results

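The genes described here are 35 genes of DNA replication and mitosis, taken by symbol from a fixed list and followed library by library in total RNA sequencing of cultured mouse hippocampal neurons. All 35 symbols were present among the 51267 features of the count table, and all 35 passed the filter on low counts that 17173 features passed. The lowest estimated count of any member in any library was 18, for Bub1 in 1 DHPG library. By textbook role the members fall into a replication arm of 11 genes (the sliding clamp gene Pcna, the helicase genes Mcm2 to Mcm7, and Rrm1, Rrm2, Tyms and Tk1, which supply deoxynucleotides) and a mitosis arm of 24 genes. This division was made after the values had been seen.

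A dividing cell first copies its DNA and then separates the copies, and each step has its own set of genes. Replication genes are switched on by E2F factors around the start of S phase. The genes of mitosis are held down by the DREAM complex, which is not particular to them. They are switched on later by B-Myb and FoxM1, largely through CHR and CCAAT elements near their start sites. Hippocampal pyramidal neurons have left the cell cycle before birth, so that in such cultures the transcripts of this programme are known chiefly from glia and progenitors that still divide.

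The cultures came from mice at P0 and were treated at DIV 16 for 30 minutes. FSK (forskolin, which activates adenylyl cyclase) was given at 50 µM to 6 libraries and DHPG (an agonist of group I metabotropic glutamate receptors) at 30 µM to 6 libraries. The other 4 libraries received the solvent DMSO. No genotype or strain is given, and nothing in the labels says whether libraries came from separate cultures or animals, so p-values measure the spread between these libraries, which may be technical.

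The libraries fell into groups of different depth, known from earlier results of these data. Total counts were 38409918 to 59958600 in a deep set of 7 libraries, namely FSK 4 to 6, DMSO 2 to 4 and DHPG 6, and mitochondrial rRNA took 10.8% to 27.7% of them. In a shallow set of 9 libraries, namely FSK 1 to 3, DHPG 1 to 5 and DMSO 1, totals were 20677117 to 24892959 and that share was 1.47% to 2.92%. Treatment and set are partly confounded, since the shallow set held 1 DMSO library and the deep set 1 DHPG library, and every comparison is therefore given also with the set as a term. FSK 4 and FSK 5 stood apart from all others by microglial markers, with 256.1 and 431.2 summed CPM (counts scaled to the library's total and its TMM factor) against 24.1 to 58.0 elsewhere. Markers of excitatory neurons, at 865.8 to 1713 summed CPM, and of inhibitory neurons, at 291.7 to 663.3, were found in every library, as were those of astrocytes, at 3350 to 7560.

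**Figure D1:**
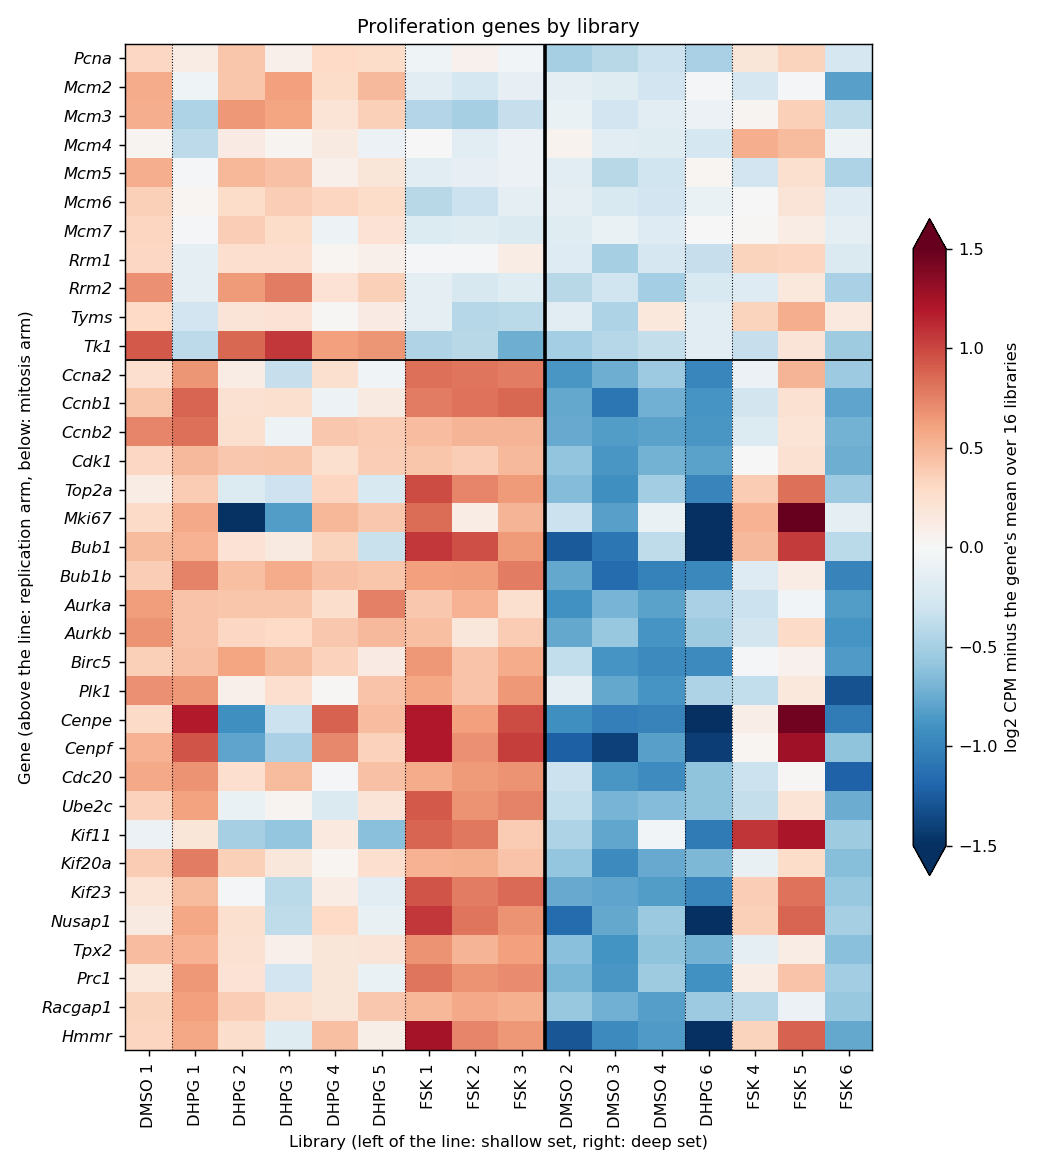
Log2 CPM of each of the 35 genes minus that gene's mean over the 16 libraries, with genes in rows and libraries in columns, the 9 shallow libraries left of the heavy line and the 7 deep ones right of it. Mitosis-arm genes are above their means in most shallow libraries and in FSK 5, and below them in DMSO 2 to 4, DHPG 6 and FSK 6, while in FSK 1 to 3 the replication-arm genes are mostly at or below their means.

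With FSK, all 24 mitosis-arm genes had a positive log2 fold change against DMSO, with a median of 0.80, while the replication arm was divided, with 4 positive and 7 negative values and a median of -0.073. The median over all 35 members was 0.57, against 0.019 over all features, of which 52.1% had a positive value. No member passed the test, which is edgeR's quasi-likelihood test with Benjamini-Hochberg adjustment over all features and a limit of 0.05, and 0.809% of all features passed it in this comparison. At an unadjusted p under 0.05, 11 of the 35 members were found, all higher and all of the mitosis arm. Of all features, 21.3% were below the same p in either direction and 10.9% were below it as higher. Other tools differed in their counts, since DESeq2 gave 4 members higher with FSK, beside 4.15% of all features, and limma-voom with sample quality weights gave 26, beside 16.8%. No member passed within the deep libraries alone (beside 0.761% of all features), where the median was 0.51, nor within the shallow ones (0.0619%), where it was 0.12 and the lone DMSO library was assumed to vary like the other groups.

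Top2a encodes the topoisomerase that untangles sister DNA before chromosomes part, and it had the smallest p of the members for FSK against DMSO. It stood at 50.8, 29.7, 24.7 and 32.6 CPM in DMSO 1 to 4, ran from 23.6 through a median of 40.4 to 61.1 CPM with DHPG, and from 32.2 through 75.6 to 92.1 CPM with FSK. In FSK, 5 of 6 libraries lay above every DMSO library, and FSK 6 lay among DMSO 2 to 4. The difference was 1.02 ± 0.30 on the log2 scale (estimate ± SE; edgeR adjusted p = 0.0907). Mki67, the gene of the Ki-67 antigen that coats mitotic chromosomes and marks cycling cells, stood at 24.1, 15.9, 11.3 and 18.4 CPM in DMSO 1 to 4. It ran from 6.07 through 18.6 to 29.3 CPM with DHPG and from 17.8 through 28.3 to 64.2 CPM with FSK. The groups overlapped widely, and its highest library, FSK 5, was 10.6-fold above its lowest, DHPG 6 (FSK against DMSO 0.91 ± 0.46, edgeR adjusted p = 0.27).

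Kif11, the kinesin motor that pushes spindle poles apart, had the second smallest p. It stood at 12.7, 9.78, 7.84 and 13.2 CPM in DMSO 1 to 4, from 6.43 through 9.30 to 15.4 CPM with DHPG, and from 9.32 through 24.2 to 31.6 CPM with FSK. Again 5 of 6 FSK libraries were above every DMSO library and FSK 6 was not (1.05 ± 0.31, edgeR adjusted p = 0.0933). The highest values were those of FSK 4 and FSK 5, and without these libraries the difference was 0.79 ± 0.31 (edgeR adjusted p = 0.195). The 250 bases before the start sites of Top2a and Kif11 are printed below because these are the mitosis genes of smallest p. They are from RefSeq on GRCm38.p6, at chr11:99024190-99024439 on the minus strand and chr19:37376132-37376381 on the plus strand, and run 5′ to 3′ towards the gene. Capitals mark CCAAT (or ATTGG on the other strand) and the CHR letters TTTGAA and TTCGAA (or TTCAAA on the other strand).
Top2a: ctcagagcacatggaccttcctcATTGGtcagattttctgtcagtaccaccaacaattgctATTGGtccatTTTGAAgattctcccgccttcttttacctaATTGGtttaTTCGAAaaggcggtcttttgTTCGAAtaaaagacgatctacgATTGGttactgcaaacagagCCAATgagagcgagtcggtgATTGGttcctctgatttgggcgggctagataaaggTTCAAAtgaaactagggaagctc
Kif11: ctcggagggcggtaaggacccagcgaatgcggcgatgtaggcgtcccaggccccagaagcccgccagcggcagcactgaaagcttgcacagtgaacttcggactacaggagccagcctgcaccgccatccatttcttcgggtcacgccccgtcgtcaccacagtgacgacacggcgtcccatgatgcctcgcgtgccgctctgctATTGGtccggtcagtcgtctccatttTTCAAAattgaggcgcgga
The Top2a window held CCAAT at 6 places and CHR letters beginning 179, 140, 120 and 23 bases before the start. In Kif11 there was 1 of each, beginning 45 and 19 bases before the start.

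Cyclins and their kinase drive the cell into mitosis. Ccnb1, the cyclin B1 gene, stood at 22.1, 9.68, 7.76 and 10 CPM in DMSO 1 to 4, from 8.89 through 18.7 to 30.2 CPM with DHPG, and from 9.52 through 23.7 to 29.9 CPM with FSK. DMSO 1 lay above FSK 4, FSK 5 and FSK 6, so that the groups overlapped (0.80 ± 0.38, edgeR adjusted p = 0.232). Ccna2, the cyclin A2 gene that acts from S phase to early mitosis, stood at 17.6, 8.07, 8.89 and 10.2 CPM in DMSO, from 7.47 through 15.2 to 23.6 CPM with DHPG and from 10.1 through 23.2 to 26.3 CPM with FSK. FSK 1 to 3 and FSK 5 were above every DMSO library (0.87 ± 0.33, edgeR adjusted p = 0.151). Cdk1, the kinase partner of both, stood at 14.9, 7.96, 6.52 and 7.32 CPM in DMSO, from 6.84 through 15.7 to 16.9 CPM with DHPG and from 7.20 through 14.8 to 16.8 CPM with FSK. DMSO 1 lay above FSK 4 to 6 (0.57 ± 0.29, edgeR adjusted p = 0.259). Ccnb2, a second cyclin B gene, had the smallest value of the cyclins with FSK, at 0.45 ± 0.37.

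Genes of the spindle checkpoint and the mitotic kinases had the lowest median with FSK among the mitosis roles, 0.48 over 6 genes. Aurka, whose kinase matures the spindle poles, stood at 7.82, 2.65, 3.09 and 2.87 CPM in DMSO, from 3.58 through 6.75 to 8.58 CPM with DHPG, and from 2.80 through 5.43 to 7.26 CPM with FSK. Plk1, the polo-like kinase, stood at 5.79, 3.23, 2.07 and 1.90 CPM in DMSO, from 2.57 through 4.02 to 5.66 CPM with DHPG, and from 1.40 through 4.40 to 5.65 CPM with FSK. For both, DMSO 1 lay above every FSK library (0.36 ± 0.33 and 0.30 ± 0.38, edgeR adjusted p = 0.561 and 0.681). Aurkb and Birc5, which form the chromosomal passenger complex, had 0.33 ± 0.33 and 0.59 ± 0.34 with FSK. Bub1, a checkpoint kinase, had the largest value of this role, 1.14 ± 0.48, with 2.05 ± 1.24 CPM in DMSO (mean ± SD, n = 4) and 4.48 ± 1.43 in FSK (n = 6). Bub1b, whose product BubR1 holds back anaphase, had 0.79 ± 0.39.

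The largest fold changes with FSK were those of kinetochore genes. Cenpe, a kinesin that moves chromosomes to the spindle equator, had 1.33 ± 0.58 (edgeR adjusted p = 0.197), with 2.18 ± 1.17 CPM in DMSO (SD, n = 4) and 5.45 ± 2.69 in FSK (n = 6). Cenpf, a kinetochore protein gene, had 1.28 ± 0.52 (edgeR adjusted p = 0.173). Their FSK libraries spread from 1.52 to 8.84 CPM and from 4.22 to 15.7 CPM. Of the pair that acts with the anaphase-promoting complex, which marks securin and cyclin B for destruction, the activator Cdc20 had 0.46 ± 0.37 and the ubiquitin-conjugating enzyme Ube2c 0.64 ± 0.33.

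The 8 spindle and cytokinesis genes had a median of 0.96 with FSK. Kif23 and Racgap1 form centralspindlin, which positions the cleavage furrow, and had 1.10 ± 0.33 and 0.53 ± 0.29. Hmmr and Nusap1, whose products bind spindle microtubules, had 1.20 ± 0.43 and 1.14 ± 0.37, and Prc1, which bundles the central spindle, 0.86 ± 0.30. Kif20a, a kinesin of cytokinesis, had 0.61 ± 0.30 and Tpx2, an activator of Aurora A, 0.58 ± 0.30. Their edgeR adjusted p ran from 0.0933 to 0.301 with Kif11 included.

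**Figure D2:**
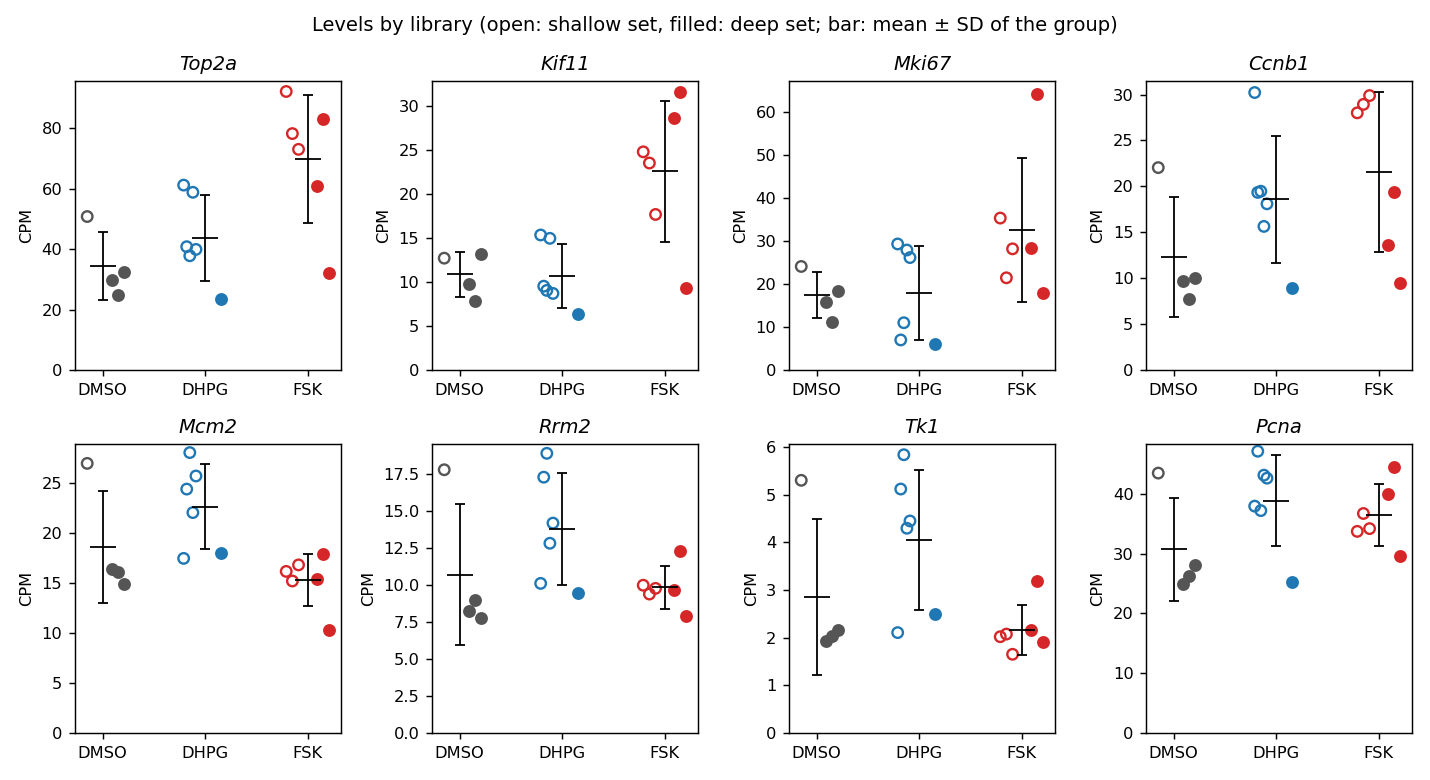
CPM of 8 members by treatment, 1 point per library (open for the shallow set, filled for the deep set), with the mean ± SD of the group as a bar. For Top2a and Kif11, 5 of 6 FSK libraries are above every DMSO library, and for Mcm2, Rrm2 and Tk1 the open FSK points are below the open DMSO point.

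Over all libraries the replication arm did not follow the mitosis arm with FSK. Within the deep libraries alone it was positive for 10 of 11 genes with a median of 0.23, beside all 24 mitosis genes with 0.65 and a median of 0.047 over all features. Within the shallow libraries, where DMSO was a lone library, it was negative for all 11 genes with a median of -0.64. There 20 of 24 mitosis genes were positive, with a median of 0.36 for that arm and 0.017 over all features. The values over all libraries thus join opposite directions in the 2 sets. Mcm2, a subunit of the helicase that opens DNA at the fork, stood at 27.0, 16.4, 16.1 and 14.9 CPM in DMSO 1 to 4, from 17.5 through 23.2 to 28.0 CPM with DHPG, and from 10.3 through 15.8 to 17.9 CPM with FSK. FSK lay within the DMSO range except for FSK 6, which was the lowest of the 16 libraries (-0.28 ± 0.19, edgeR adjusted p = 0.41). Mcm3 to Mcm7, the other subunits, had values from -0.21 (Mcm3) to 0.21 (Mcm4) with FSK, and Mcm4 was the only one of them above 0. Levels of these 5 genes over all libraries spanned 8.45 to 34.1 CPM. Pcna, the clamp that holds the polymerase on DNA, stood at 43.5, 25.0, 26.3 and 28.1 CPM in DMSO, from 25.2 through 40.3 to 47.1 CPM with DHPG, and from 29.6 through 35.4 to 44.5 CPM with FSK. All 6 FSK libraries were above DMSO 2 to 4, and DMSO 1 was above 5 of the 6 (0.25 ± 0.18, edgeR adjusted p = 0.443). The Pcna-ps2 pseudogene is also listed, at 253.5 to 605.8 estimated counts, and reads that match both copies can be divided between them.

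The windows of Mcm2 (chr6:88898781-88899030, minus strand) and Mcm6 (chr1:128359706-128359955, minus strand) are printed because they had the smallest p among the helicase genes for FSK against DHPG. Capitals mark the same letters as above and also E2F-type letters on either strand. Of these letters 1 form was TTGGCGC. Another form was TTCGCGC. The last form searched was TTCCCGC.
Mcm2: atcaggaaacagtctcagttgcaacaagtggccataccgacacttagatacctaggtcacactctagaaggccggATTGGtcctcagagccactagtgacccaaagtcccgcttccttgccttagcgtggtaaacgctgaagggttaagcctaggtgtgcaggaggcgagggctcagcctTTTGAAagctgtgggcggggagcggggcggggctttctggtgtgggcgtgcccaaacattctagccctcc
Mcm6: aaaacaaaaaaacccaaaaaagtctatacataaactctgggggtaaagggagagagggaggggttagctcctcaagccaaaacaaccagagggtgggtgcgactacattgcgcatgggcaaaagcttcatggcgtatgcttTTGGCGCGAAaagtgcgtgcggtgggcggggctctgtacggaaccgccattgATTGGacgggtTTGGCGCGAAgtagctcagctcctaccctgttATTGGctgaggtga
In Mcm6 the E2F-type letters TTGGCGC began 109 and 46 bases before the start, each overlapping a TTCGCGC on the other strand. The Mcm2 window held CHR letters beginning 70 bases before the start and no E2F-type letters. Tk1 had a smaller p than Mcm6 in that comparison, and its window, which is not printed, held none of the marked letters.

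Among the nucleotide supply genes, Rrm2, the regulated subunit of ribonucleotide reductase, stood at 17.8, 8.25, 8.95 and 7.76 CPM in DMSO 1 to 4. With DHPG it ran from 9.45 through 13.5 to 18.9 CPM, and with FSK from 7.87 through 9.70 to 12.3 CPM. Every FSK library was below DMSO 1 and 5 of 6 were above DMSO 2 to 4 (-0.12 ± 0.24, edgeR adjusted p = 0.821). Tyms, the thymidylate synthase gene, stood at 7.33, 5.33, 4.28 and 6.65 CPM in DMSO, from 4.87 through 6.24 to 6.90 CPM with DHPG, and from 4.41 through 5.97 to 8.72 CPM with FSK. The 3 ranges overlapped (0.070 ± 0.21). Rrm1, the large reductase subunit, had 0.23 ± 0.16, and Tk1, the thymidine kinase of the salvage route, had the lowest value of all members, -0.39 ± 0.33.

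DHPG gave no member past the test against DMSO, where 0.00582% of all features passed. Members had a median of 0.43, against -0.0065 over all features, with 33 of 35 values positive, a median of 0.51 in the mitosis arm and of 0.25 in the replication arm. This comparison shares its DMSO libraries with that of FSK. At an unadjusted p under 0.05 there were 3 members, all higher, beside 12.4% of all features in either direction and 4.35% higher, and DESeq2 gave 0 members, beside 0.0408% of all features. The limma-voom fit gave 25 members, all higher, beside 34.7% of all features in either direction and 15.8% higher. Bub1b had the smallest p, with 10.6, 4.79, 3.67 and 4.03 CPM in DMSO 1 to 4, 4.17 through 11.3 to 13.9 CPM with DHPG, and 4.07 through 10.8 to 14.1 CPM with FSK. DHPG 1 to 5 lay above all 4 DMSO libraries, and DHPG 6, the deep library, lay among DMSO 2 to 4 (0.88 ± 0.39, edgeR adjusted p = 0.4). Cdk1 came next with 0.64 ± 0.29, and stood at 6.84 CPM in DHPG 6 and 14.2 to 16.9 CPM in the other 5 DHPG libraries, of which DHPG 4 lay below DMSO 1. Kif11 (-0.028 ± 0.30) and Mcm4 (-0.0030 ± 0.16) were the 2 members below 0. With the set as a term the median was 0.067 and no edgeR adjusted p was below 1. Within the shallow libraries it was -0.16, and within the deep ones -0.023.

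FSK and DHPG differed for 3 members. Kif11 was 1.08 ± 0.27 log2 units higher with FSK (edgeR adjusted p = 0.0173), Mcm2 was 0.56 lower (-0.56 ± 0.17, edgeR adjusted p = 0.0256) and Tk1 0.90 lower (-0.90 ± 0.30, edgeR adjusted p = 0.0363). Called members were few in this comparison, since 30.8% of all features passed the test, 16.3% as higher and 14.4% as lower. The median over members was 0.011, close to the 0.028 of all features, with 0.27 in the mitosis arm and -0.34 in the replication arm. Tk1 fell from 4.05 ± 1.47 CPM with DHPG to 2.17 ± 0.53 with FSK (SD, n = 6 each), and only DHPG 1 and DHPG 6 lay within the FSK range. None of the 3 calls was kept without FSK 4 and FSK 5 (edgeR adjusted p = 0.102 for Kif11, 0.0929 for Mcm2 and 0.0936 for Tk1), although the fold changes were of like size at 0.82, -0.63 and -1.08. Without them 0.0179% of all features passed. DESeq2 called 6 members, beside 37% of all features, and limma-voom 17, beside 33.7%. No member passed within the shallow libraries alone (beside 0.0506% of all features), nor within the deep ones (0%).

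More members passed the test for the library set than for any treatment in the same fit. With both terms, 22 of the 35 members were higher in shallow than in deep libraries and none lower, beside 15.6% of all features higher and 18.9% lower. Of these, 21 belonged to the mitosis arm. The median over members was 0.84, against -0.0044 over all features. Racgap1 was 0.93 ± 0.092 log2 units higher in the shallow set (edgeR adjusted p = 5.3e-06), Bub1b 1.20 ± 0.16 (7.91e-05) and Ccnb1 1.14 ± 0.17 (0.000155). In the replication arm Mcm2 passed alone (0.37 ± 0.14, 0.0492), and Mcm4 (-0.12) and Tyms (-0.15) had values below 0. The mitosis genes that did not pass were Mki67 (0.34 ± 0.42), Kif11 (0.24 ± 0.27) and Cenpe (1.08 ± 0.44). For 5 members, Cdk1, Bub1b, Aurka, Birc5 and Racgap1, all 9 shallow libraries lay above all 7 deep ones, as for 3.59% of all features.

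With the set as a term, 5 members rose with FSK against DMSO, beside 3.45% of all features higher and 5.99% lower. These were Top2a (0.88 ± 0.23, edgeR adjusted p = 0.0325), Kif23 (0.95 ± 0.24, 0.0294), Nusap1 (0.97 ± 0.28, 0.0425), Prc1 (0.67 ± 0.19, 0.04) and Hmmr (1.04 ± 0.30, 0.0434). Ccna2 (adjusted p = 0.0506) and Kif11 (0.0512) lay just above the limit. The median was 0.54 in the mitosis arm and -0.083 in the replication arm, where no gene passed. These calls were lost without FSK 4 and FSK 5. With the set term and without them, no member passed (beside 0.335% of all features, 0.269% higher and 0.0658% lower), the median over members was 0.033 and Top2a had 0.42 ± 0.19 (edgeR adjusted p = 0.236). Leaving out DHPG 1 instead gave 9 members higher, beside 6.31% of all features higher and 8.6% lower.

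For FSK against DHPG, the fit with the set as a term gave 11 members higher, all of the mitosis arm, and Mcm2 lower (-0.43 ± 0.15, edgeR adjusted p = 0.05 as rounded, under the limit). In the same fit 11.4% of all features were higher and 11.9% lower. Those that rose were Ccna2, Ccnb1, Top2a, Bub1, Ube2c, Kif11, Kif23, Nusap1, Tpx2, Prc1 and Hmmr, by 0.43 (Tpx2) to 1.27 (Bub1). Cenpf, at 1.09 ± 0.38, had an adjusted p of 0.0512. The median was 0.56 in the mitosis arm and -0.24 in the replication arm. Without FSK 4 and FSK 5, this fit called 8 members higher and Mcm2, Mcm6 and Tk1 lower, beside 9.27% of all features, 4.79% higher and 4.48% lower. Without DHPG 1 it called 12 higher and 2 lower, beside 16.1% of all features in each direction.

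Within each set the arms parted in different ways. Among shallow libraries FSK 1 to 3 lay above DMSO 1 for 18 mitosis genes, where 39.6% of all features did so. All 11 replication genes and Ccnb2, Aurka, Aurkb and Plk1 lay below it, as did 39.9% of all features. Against DHPG 1 to 5, FSK 1 to 3 were higher without overlap for 9 mitosis genes (9.68% of all features) and lower for 7 replication genes (10.3%): Pcna, Mcm2, Mcm5, Mcm6, Mcm7, Rrm2 and Tk1. Among deep libraries, FSK 4 to 6 lay above DMSO 2 to 4 for 8 members (11% of all features), of which Pcna was of the replication arm. Over all libraries no member separated FSK from DMSO, DHPG from DMSO or FSK from DHPG (background 3.62% and 4.36%, 0.641% and 0.67%, and 3.21% and 4.03% of features, higher and lower). A test of whether the effect of FSK against DMSO differed between sets gave no member past the limit, beside 0.0175% of all features. Its smallest p belonged to Mcm6, with -0.64 in shallow and 0.22 in deep libraries (edgeR adjusted p = 0.356).

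**Figure D3:**
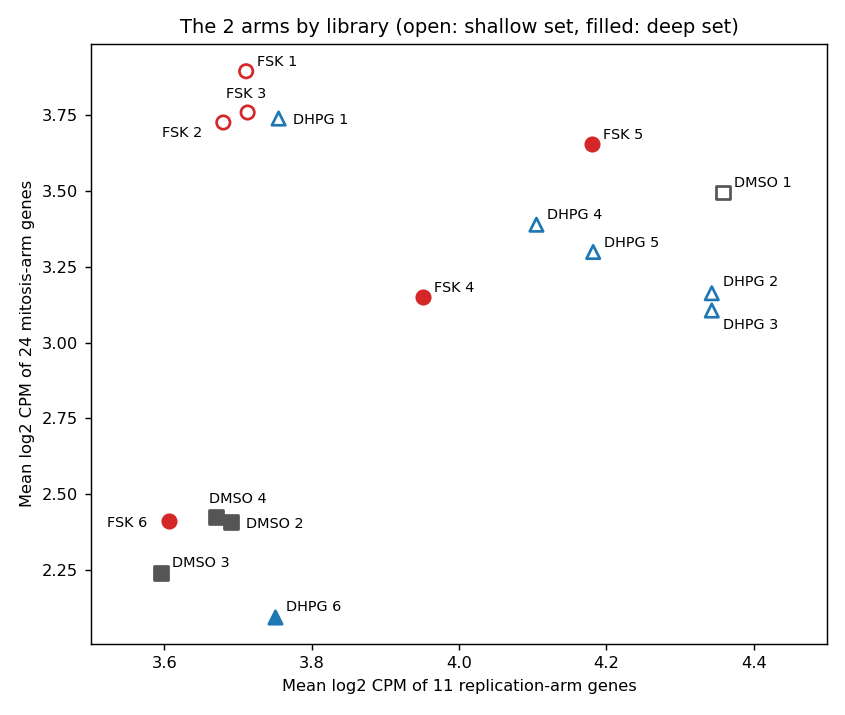
Mean log2 CPM of the 24 mitosis-arm genes against that of the 11 replication-arm genes, 1 point per library, open for the shallow and filled for the deep set. FSK 1 to 3 and DHPG 1 lie together at high mitosis and low replication values, DMSO 2 to 4, DHPG 6 and FSK 6 at low values of both, and DMSO 1 and DHPG 2 to 5 at high replication values.

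The balance of the arms in a library was taken as the mean log2 CPM of the mitosis genes minus that of the replication genes. It was 0.18, 0.046 and 0.046 in FSK 1 to 3 and -0.015 in DHPG 1, the highest 4 of the 16 libraries. In the other shallow libraries it ran from -1.24 (DHPG 3) to -0.72 (DHPG 4), with -0.86 in DMSO 1. Among deep libraries FSK 5 had -0.52 and FSK 4 -0.80, while DMSO 2 to 4, DHPG 6 and FSK 6 had -1.65 to -1.20. FSK 6 thus lay with the deep DMSO libraries and DHPG 1 with the shallow FSK libraries.

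Some markers of other cell types moved with these values in part of the libraries. The 10 markers of oligodendrocyte precursors, which can divide in such cultures, summed to 861.0 to 973.5 CPM in DHPG 1 and FSK 1 to 3, and to 508.4 to 651.5 CPM in the other 5 shallow libraries. Of the leading markers Pdgfra was higher in the former, at 348.7 to 364.2 CPM against 59.7 to 185.9 CPM, and Olig1 lower, at 142.4 to 164.3 CPM against 205.5 to 324.1 CPM. In the deep set the sum was 594.0, 665.2 and 627.5 CPM in FSK 4, FSK 5 and FSK 6. It was 743.8 to 828.9 CPM in DMSO 2 to 4 and DHPG 6, with which FSK 6 lay by the balance of the arms. The 10 markers of myelinating oligodendrocytes, led by Cnp and Mbp, summed to 163.6 to 255.7 CPM in DHPG 1 and FSK 1 to 3. In the other 5 shallow libraries they summed to 53.4 to 60.4 CPM, and up to 2 of them were at 0. In FSK 4 and FSK 5 they summed to 657.7 and 1002 CPM, and the 12 markers of neural progenitors, led by Vim and Fabp7, to 2004 and 2070 CPM against 585.6 to 1222 elsewhere. The 14 microglial markers were above 0 in each library. Between the sets, astrocyte markers summed to 3350 to 5540 CPM in shallow and 6109 to 7560 CPM in deep libraries, and markers of choroid plexus and ependyma to 41.8 to 108.9 CPM and 137.3 to 493.4 CPM. The part of these cells, of depth and of mitochondrial rRNA in the members' values was not tested. In bulk RNA, fewer cells of a type and less RNA per cell cannot be told apart.

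Further genes of the same programme, from lists chosen with earlier results known, were counted in the same way. Of 40 other replication genes none passed in either comparison with DMSO (medians 0.051 with FSK and 0.22 with DHPG), and 4 were lower with FSK than with DHPG (median -0.24), a share below the 14.4% of all features. Among those of smallest p with FSK were the uracil glycosylase gene Ung (-0.66 ± 0.24, edgeR adjusted p = 0.14) and the DNA polymerase gene Pola1 (0.51 ± 0.19, 0.145). Among those with DHPG were the clamp loader gene Rfc4 (0.53 ± 0.20) and the fork protection gene Tipin (0.36 ± 0.16), each with an edgeR adjusted p of 0.4.

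Of 67 other mitosis genes none passed in either comparison with DMSO, with medians of 0.60 for FSK and 0.44 for DHPG. In FSK against DHPG 3 were higher, a share below the 16.3% of all features, and with the set as a term 21 were, beside 11.4%. With that term 5 rose with FSK against DMSO, beside 3.45% of all features. The condensin genes Ncapg (1.31 ± 0.35, edgeR adjusted p = 0.0799) and Smc4 (1.39 ± 0.43, 0.103) were among those of smallest p with FSK. With DHPG the smallest p were those of the centromere gene Hjurp (0.33 ± 0.12), the cyclin F gene Ccnf (0.66 ± 0.29) and the spindle gene Tacc3 (0.58 ± 0.28), each with an edgeR adjusted p of 0.4.

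Genes that control entry into and exit from the cycle in G1 had medians near 0 against DMSO. None of 35 passed against DMSO (medians 0.054 with FSK and -0.047 with DHPG), while 8 were higher and 2 lower with FSK than with DHPG (median 0.17), beside 16.3% and 14.4% of all features. With FSK the smallest p were those of Lin9, a subunit of the MuvB core of DREAM (0.65 ± 0.18, edgeR adjusted p = 0.0847), Rbl1, the p107 pocket protein gene (0.49 ± 0.20, 0.171), and Fzr1, an activator of the anaphase-promoting complex (-0.35 ± 0.17, 0.252). With DHPG they were the kinase inhibitor gene Cdkn2b (-0.65 ± 0.27), the MuvB gene Lin52 (-0.29 ± 0.13) and the cyclin E1 gene Ccne1 (0.33 ± 0.15), each with an edgeR adjusted p of 0.4.

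Letters before the start sites were counted as a description of what the members share. RefSeq windows of 250 bases before the start were found for 30 of the 35 members, 20 of the mitosis and 10 of the replication arm. A gene was counted if any of its windows held the letters. CCAAT stood on either strand for 18 of the 20 mitosis genes (90%), 8 of the 10 replication genes (80%) and 37.5% of 27025 genes. CHR letters (TTTGAA or TTCGAA) were found for 9 mitosis genes (45%), 2 replication genes (20%) and 19.6% of all genes. Prc1 and Mcm7 each had a window with CHR letters and another without. E2F-type letters were found for 4 mitosis genes (20%), 4 replication genes (40%) and 7.68% of all genes. Top2a, Kif11 and Prc1 were among the mitosis genes with both CCAAT and CHR letters, and Kif23, Racgap1 and Hmmr among those with CCAAT but no CHR letters. These counts describe letters, and genes of this programme are known for such elements.

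In the authors' deposited table for FSK against DMSO, 5 members had an adjusted p under 0.05, all higher, beside 4.85% of all its features with an adjusted p. In the authors' deposited table these were Top2a (log2 fold change 1.0, adjusted p = 0.0174), Kif11 (1.04, 0.0179), Kif23 (1.09, 0.0221), Nusap1 (1.12, 0.0153) and Hmmr (1.18, 0.0462). No member passed in the authors' deposited table for DHPG against DMSO, where 0.254% of features were higher. For each member the authors' deposited table and the edgeR fit with groups only differed by at most 0.031 in log2 fold change.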

How the data were processed

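Total RNA of 16 libraries was prepared with a stranded total RNA kit, per the labels' protocols, and quantified with Salmon on GRCm38 and compared with DESeq, per the submitters' processing notes; the sources used here state no versions. The deposited table holds estimated counts, 26.6% of them not whole, which were rounded. The authors' deposited tables also give log2 fold changes, p-values, a mean signal and a test score, of which the last 2 were not used. Column names numbered as controls were matched to the DMSO titles by number. The fold changes recomputed from them correlated with the authors' tables at 0.9997 or more (average log2 CPM of 0 or more). Exchanging columns within a group leaves such fold changes as they are, so the correlation bears on the group of a column and not on its number.

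Counts were tested with edgeR 4.0.16 in R 4.3.3 (quasi-likelihood F-test, robust, TMM factors, filterByExpr with a minimum count of 10, prior count 2 for log2 CPM, all 3 groups in one fit, Benjamini-Hochberg over 17173 features, limit 0.05). The script was tested on simulated data. Alternatives were DESeq2 1.42.0, limma-voom (limma 3.58.1), other scaling and filters, fewer libraries, the library set (deep or shallow, by total counts) as a term and the replicate number as a block. The terms with FSK 4 and FSK 5 or DHPG 1 left out, and the test of the difference between sets, were added after seeing the data. The members, lists and tests were chosen with earlier results of these data known. All 35 members are named; values in all libraries are given for those of smallest p and for a fixed list of common markers of division, and from each other list the 3 genes of smallest p against DMSO, apart from some not reported here. No 2 libraries of a group agreed within sampling noise (chi-square per feature 5.88 or more). FSK 1 to 3 were the most alike, at 5.88, 7.57 and 11.8, and the other pairs within a group had 16.3 to 538.7. The miRNA tables were not used. Sequences were copied from RefSeq (GRCm38.p6). Depth was 20677117 to 59958600 counts per library. Same-numbered libraries were not treated as paired in the main fit. Of 14 pairs, 3 had deviations correlated over 0.1, which cannot decide on pairing because some pairs join a deep and a shallow library.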

Additional observations from a re-analysis of the deposited data

Results flagged for a closer look

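In 20 of 105 tests of a gene in a treatment group, the highest or lowest library stood apart from the others by Dixon's criterion. A single such test flags about 1 in 20 by chance. The 105 tests share the same libraries and are not independent, so this rate cannot be set against their count. In DMSO there were 15 such cases, each with DMSO 1, the single shallow DMSO library, as the highest. The values in DMSO 1 were 43.5 CPM for Pcna, 27.0 for Mcm2, 33.7 for Mcm6, 26.7 for Mcm7, 17.8 for Rrm2 and 5.30 for Tk1. In the mitosis arm they were 22.1 CPM for Ccnb1, 6.89 for Ccnb2, 10.6 for Bub1b, 7.82 for Aurka, 7.60 for Aurkb, 3.93 for Cenpe, 5.08 for Kif23, 26.7 for Tpx2 and 27.7 for Racgap1. The nearest DMSO library lay at 8.95 CPM for Rrm2 and at 14.7 CPM for Racgap1.

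In DHPG the single deep library, DHPG 6, stood apart as the lowest for Cdk1 (6.84 CPM, nearest 14.2), Bub1b (4.17 CPM, nearest 11) and Aurkb (3.25 CPM, nearest 5.84). In FSK, Mcm2 was lowest in FSK 6 (10.3 CPM, nearest 15.2) and Tk1 highest in FSK 5 (3.18 CPM, nearest 2.17).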

How the results depend on the processing

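Counts of members and the medians were recomputed under 30 alternatives. No called value changed sign. Uncalled fold changes changed sign in 36, 122 and 107 of 1050 cases for FSK against DMSO, DHPG against DMSO and FSK against DHPG. The calls of Kif11, Mcm2 and Tk1 for FSK against DHPG were lost in 26 cases, and calls not made with groups only were gained in 60, 25 and 65 cases. The causes were not tested.

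For FSK against DMSO (0 members called, median 0.57), DESeq2 called 4 members, limma-voom 26 (median 1.15), the set term 5, and the set term without DHPG 1 9. The set term without FSK 4 and FSK 5 gave a median of 0.033. Leaving out 1 library gave 0 to 1 members (1 without FSK 6). Of the other mitosis genes, DESeq2 called 8, limma-voom 59, the set term 5, the set term without DHPG 1 17, and leaving out 1 library 0 to 1. Of the other replication genes limma-voom called 12 and the set term without DHPG 1 1. Of the G1 genes these counts were 1 with DESeq2, 7 with limma-voom, 3 with the set term and 5 with DHPG 1 also left out. Of all features, 4.15% were higher with DESeq2, 16.8% with limma-voom, 3.45% with the set term and 6.31% with DHPG 1 also left out. In either direction the last 2 fits called 9.45% and 14.9%. Shares for the fits leaving out 1 library are not given here, so those counts are not read as a result about the members.

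For DHPG against DMSO (0 members, median 0.43), limma-voom called 25 members, 23 other replication, 43 other mitosis and 15 G1 genes. It called 34.7% of all features in either direction. The median was -0.16 in shallow libraries only and -0.12 with the set term and without FSK 4 and FSK 5.

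For FSK against DHPG (3 members, median 0.011), DESeq2 called 6 members and 6 other mitosis genes, and limma-voom 17 members, 17 other replication and 19 other mitosis genes. The set term gave 12 members, 2 other replication and 21 other mitosis genes. With DHPG 1 also left out it gave 14 members and 29 other mitosis genes, and with FSK 4 and FSK 5 also left out 11 members, 2 other replication and 2 G1 genes. Of all features, DESeq2 called 37%, limma-voom 33.7% and the set term 23.3%. With DHPG 1 also left out the share was 32.2%, and with FSK 4 and FSK 5 also left out 9.27%. Deep libraries only (median 0.56), shallow libraries only, and all libraries without FSK 4 and FSK 5 each gave 0 members and 0 genes of each list. Without a filter there were 2 other replication, 1 other mitosis and 6 G1 genes. With library totals without TMM there were 2 other replication genes and 1 other mitosis gene. The other mitosis genes also came to 1 with relative log expression factors, with a minimum count of 5, and with only the groups compared. Leaving out 1 library gave 1 to 8 members (8 without DMSO 1, 6 without DHPG 1 and 1 without DHPG 2, DHPG 3, DHPG 5 or FSK 4). It gave 0 to 6 other replication, 1 to 11 other mitosis and 3 to 12 G1 genes. The shares of all features are not given here for these fits or for the other filters and scalings. Their counts are therefore not read as a result about the members.

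Whether same-numbered libraries were paired was left undecided. Deviations correlated over 0.1 in 3 of 14 pairs, and 1 of 16 libraries correlated best with its own number. All 3 pairs joined libraries of the same set (0.394, 0.218 and 0.158), where the other pairs had -0.18 to 0.066. Pairs of a deep and a shallow library had -0.405 to 0.024. Such pairs differ also by set, so this check cannot decide. With the replicate number as a block, 15 members and 22 other mitosis genes were higher for FSK against DMSO (beside 1.69% of all features), no member for DHPG against DMSO (0%), and 9 members and 12 other mitosis genes differed for FSK against DHPG (24.3%). Depth limits genes at few counts. The lowest count, 18 for Bub1, was however in DHPG 6, a deep library, where Bub1 stood at 0.457 CPM.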

Other observations

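Members differed in how they varied within the mitosis arm. Bub1, Cenpe and Mki67 spanned 12.5-fold, 11.2-fold and 10.6-fold over the 16 libraries, whereas Cdk1, Racgap1 and Tpx2 spanned 2.59-fold, 2.72-fold and 3.0-fold. A contrast chosen after the values were seen set the mean log2 CPM of Mki67, Cenpe and Cenpf against that of Ccnb1, Cdc20, Ube2c and Birc5. The former transcripts are known as long and the latter as short. Lengths were not taken from these data, and the part of length was not tested. The difference between the means was compared between libraries. It was -1.55 in DHPG 2, -1.10 in DHPG 3 and -1.16 in DHPG 6, between -0.60 and 0.45 in 12 other libraries, and 1.10 in FSK 5. Within the shallow set Mki67 was at 7.03 and 11 CPM in DHPG 2 and DHPG 3 and at 26.1 to 29.3 CPM in DHPG 1, DHPG 4 and DHPG 5, while Ccnb1 was at 19.4 and 19.5 CPM in the first pair and 15.7 to 30.2 CPM in the other 3.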
